A study of Mus musculus with 10 samples.

Results

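The genes described here are 36 genes of the unfolded protein response and of protein folding in the endoplasmic reticulum (ER), chosen by symbol from the 19456 genes listed in the 10 libraries of this study. They comprise 15 chaperones and folding enzymes, 7 genes of ER-associated degradation (ERAD), 6 genes of the PERK and ATF4 branch, 4 stress sensors, the transcription factors Xbp1 and Bhlha15, and the translocon subunits Sec61a1 and Sec61b. All 36 were listed in every library. Poly-A RNA was sequenced from intestinal tissue of C57BL/6 mice, either wild type (WT) or transgenic mice that overexpress ITGB6 (TG), the β6 subunit of an epithelial integrin. There were 3 libraries of untreated WT, 3 of untreated TG, 2 of WT given 2.5% dextran sulfate sodium by mouth (DSS, a chemical that injures the gut lining, used here as a model of intestinal fibrosis) and 2 of TG given the same DSS. The promoter and cell type that drive the transgene, the number of founder lines, the ages of the mice and the length of DSS treatment are not given in the sources used here. The labels do not say that the libraries came from separate animals, so each p-value reflects only how far these samples vary, which may be technical variation.

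Proteins that enter the secretory pathway pass through the Sec61 translocon into the ER, where chaperones such as BiP, the product of Hspa5, and disulfide isomerases fold them. When unfolded proteins accumulate, 3 branches respond, headed by the sensors IRE1, ATF6 and PERK. IRE1 splices Xbp1 mRNA, and XBP1 and ATF6 raise chaperone and ERAD genes, whereas PERK slows translation and favours ATF4, which raises amino acid and stress genes such as Asns and Ddit3. In the intestine, mucus-secreting goblet cells and Paneth cells carry the heaviest secretory load, and Ern2 encodes an IRE1 form restricted largely to such epithelia.

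The libraries held 15393859 to 18284704 expected counts each, and levels are given as TMM-scaled CPM, which relates a gene's count to library size, for comparisons between libraries, or as FPKM for comparisons between genes. The human ITGB6 entry checked the genotype labels: it stood at 2201 to 3913 CPM in the 5 TG libraries and at 0.1173 to 1.134 CPM in the 5 WT libraries, while mouse Itgb6 did not pass between genotypes. The tissue label fitted an epithelial sample, with 6 epithelial markers summing to 13300 to 19000 CPM and 4 smooth muscle markers to 6.39 to 9.69 CPM. Sex-linked genes split the libraries by treatment: Xist stood between 0 and 0.421 CPM without DSS (6 libraries) and between 307 and 739 CPM with it (4 libraries), and the Y-linked Ddx3y between 14.2 and 46.4 CPM and between 0 and 0.247 CPM. DSS and sex therefore cannot be told apart in any comparison of DSS with untreated tissue. The same holds where the genotype difference after DSS is compared with that in untreated tissue. The library TG untreated 1 stood apart from the other untreated TG libraries, with Spearman correlations over genes of 0.973 and 0.975 against 0.993 between those. It also had the lowest Ptprc, a marker of all leukocytes, among the untreated libraries (8.94 CPM against 56.9 and 79.5 in its group), so counts that rest on it are also given without it.

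Calr, a lectin chaperone, was the most abundant member per length (mean over all libraries 457.4 FPKM), followed by Hspa5 (323.9 FPKM) and P4hb, a disulfide isomerase (303.9 FPKM). The lowest were Trib3, a pseudokinase induced by ATF4 (0.224 FPKM), Derl3, a secretory ERAD factor (0.473 FPKM), and Chac1, a glutathione-degrading enzyme (1.517 FPKM). Xbp1 stood at 96.47 FPKM and Bhlha15, which encodes the secretory cell factor MIST1, at 2.045 FPKM. Among the sensors, Ern2 had a higher mean level (29.9 FPKM) than Ern1, the widely expressed IRE1 gene (6.72 FPKM).

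**Figure D1:**
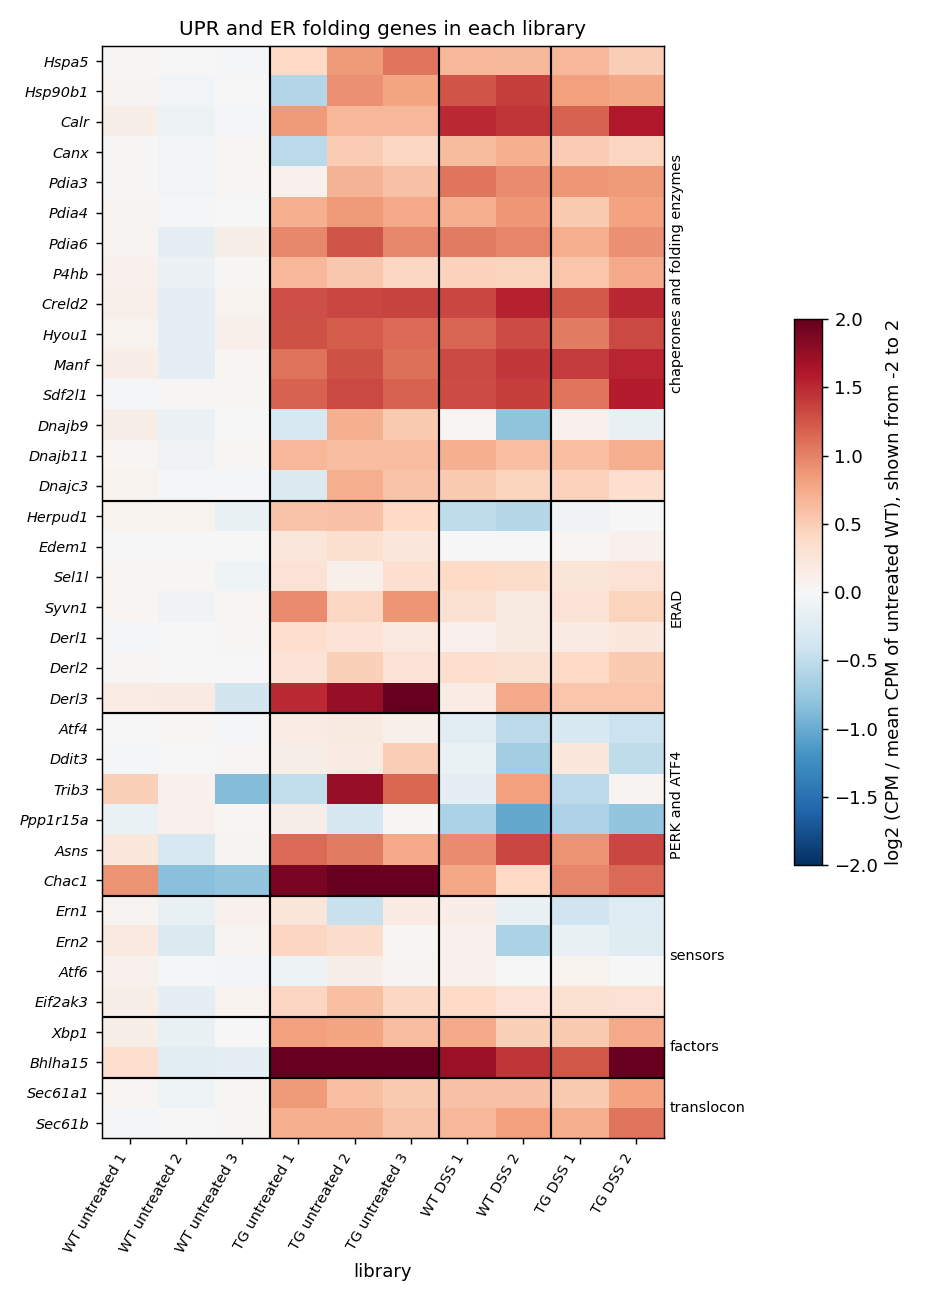
Heat map of the 36 genes (rows, grouped by role) in the 10 libraries (columns). Colour is the log2 ratio of CPM to the mean of the 3 untreated WT libraries, with colours limited to the range from -2 to 2. Creld2, Hyou1, Manf, Sdf2l1 and Bhlha15 are red in all 7 libraries other than untreated WT, Herpud1 is red only in untreated TG, and Hsp90b1, Canx, Dnajb9 and Dnajc3 are blue in TG untreated 1.

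Without DSS, chaperone and folding genes were higher in TG than in WT tissue, and no member was lower. In edgeR's quasi-likelihood test with Benjamini-Hochberg adjustment over 14072 genes, 20 of the 36 members rose and 0 fell, against 2.26% of all genes tested that rose and 1.44% that fell. Scaling by total counts, which lowered the median of all genes to -0.10, changed those calls from 318 up and 202 down to 235 and 382, with 19 members up and 0 down. The median log2 fold change of the 36 was 0.59, with 35 above 0, against a median of -0.02 over all genes. In 27 members every TG library lay above every WT library, against 2346 of all 14072 genes tested. All TG libraries lay below all WT libraries in 0 members, against 2175 of all genes. In bulk tissue, more cells of a type and more RNA per cell cannot be told apart. Without TG untreated 1, 25 members rose, and without TG untreated 2, 11 did. Leaving out WT untreated 1, 2 or 3 left 10, 7 or 6 members. Pdia6, Creld2, Hyou1, Manf, Sdf2l1 and Bhlha15 passed in all 19 alternative analyses.

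By role, 10 of 15 chaperones and folding enzymes rose (median log2 0.73), as did 3 of 7 ERAD genes (median 0.35), 2 of 6 PERK and ATF4 genes (median 0.62), 1 of 4 sensors (median 0.16), both transcription factors and both translocon subunits. Differences between these groups of genes were not tested. Without WT untreated 2 and 3, the chaperones that rose were 6 and 5. The chaperone median in each untreated TG library, as a log2 difference from the untreated WT mean, was 0.67, 0.85 and 0.75. The ERAD median was 0.33, 0.41 and 0.34, and the PERK and ATF4 median was 0.14, 0.61 and 0.63. All 3 TG libraries therefore showed higher chaperone and ERAD medians, whereas the PERK and ATF4 median in TG untreated 1 was close to the 0.12 of WT untreated 1.

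Creld2, a disulfide isomerase-like gene induced by ER stress, read 23.87, 19.46 and 23.19 CPM in untreated WT and 54.26, 56.29 and 56.52 CPM in untreated TG. The TG libraries lay close together and far above the WT range (log2 1.33, SE 0.12, adjusted p = 0.000956, 2.51-fold). Sdf2l1, a cofactor of BiP, read 23.81, 24.7 and 24.73 CPM in WT and 55.03, 61.15 and 55.15 CPM in TG (log2 1.23, SE 0.13, adjusted p = 0.00191). Hyou1, a nucleotide exchange chaperone of the HSP70 class, read 89.33, 73.98 and 91.66 CPM in WT and 205.3, 196.4 and 186.9 CPM in TG (log2 1.21, SE 0.12, adjusted p = 0.00119). Neither gene overlapped between genotypes, and the lowest TG value of each exceeded the highest WT value. Manf, a secreted ER stress protein, read 64.99, 52.2 and 61.4 CPM in WT and 126.8, 144.1 and 127.9 CPM in TG (log2 1.16, SE 0.11, adjusted p = 0.000971). Pdia6, a disulfide isomerase, read 135.0, 113.9 and 139.8 CPM in WT and 252.6, 308.2 and 251.9 CPM in TG (log2 1.06, SE 0.12, adjusted p = 0.00302). In both genes the libraries of the 2 genotypes were again separate. Smaller rises that passed were those of Hspa5 (log2 0.80), Pdia4 (0.77), Calr (0.73), Dnajb11 (0.63) and P4hb (0.55).

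The 5 chaperone genes that did not pass were Hsp90b1, the ER form of HSP90, the lectin chaperone Canx, its partner isomerase Pdia3, and the J-domain cofactors Dnajb9 and Dnajc3. Hsp90b1 read 349.2, 324.9 and 339.1 CPM in untreated WT and 225.9, 633.3 and 580.7 CPM in untreated TG. Canx read 303.9, 288.3 and 306.4 CPM in WT and 206.5, 423.7 and 400.6 CPM in TG. In both genes TG untreated 1 lay below all WT libraries and the other TG libraries lay above them. Dnajb9 and Dnajc3 showed the same order, with TG untreated 1 at 40.54 and 79.12 CPM and the WT minimum at 46.54 and 94.09 CPM. Without TG untreated 1, Hsp90b1 (log2 0.85, adjusted p = 0.0021), Canx (0.46, adjusted p = 0.0207), Dnajc3 (0.65, adjusted p = 0.00602) and Pdia3 (0.63, adjusted p = 0.00748) rose, which brought the chaperones that passed to 14 of 15. Dnajb9 then had a log2 fold change of 0.62 (adjusted p = 0.0986).

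Promoters were compared because chaperone and ERAD genes are textbook targets of ATF6 and XBP1. RefSeq promoter windows (GRCm38.p6), each from 250 bases before to 50 bases after a start, were found for 30 of the 36 members, in 31 windows. The ER stress element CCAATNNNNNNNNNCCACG, searched on both strands, occurred in 39 of all 32851 windows (0.119%) and in the windows of 9 members, of which 7 were chaperone genes, 2 were ERAD genes and 0 were PERK and ATF4 genes. Each sequence below runs 5′ to 3′ on the gene's strand and lies wholly upstream of the start, with the fixed bases of the element in capitals. An element on the opposite strand appears as CGTGG followed by ATTGG.
Hspa5, chr2:34772005-34772063, + strand: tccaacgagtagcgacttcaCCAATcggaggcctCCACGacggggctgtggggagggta
Calr, chr8:84847055-84847113, - strand: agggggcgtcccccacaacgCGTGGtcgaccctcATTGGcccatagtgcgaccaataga
Pdia6, chr12:17266471-17266529, + strand: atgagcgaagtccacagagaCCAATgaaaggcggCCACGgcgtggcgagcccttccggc
Creld2, chr15:88819500-88819558, + strand: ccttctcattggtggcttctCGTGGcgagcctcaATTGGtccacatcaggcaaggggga
Syvn1, chr19:6046512-6046570, + strand: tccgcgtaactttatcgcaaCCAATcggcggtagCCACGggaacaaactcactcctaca
Derl3, chr10:75893222-75893280, + strand: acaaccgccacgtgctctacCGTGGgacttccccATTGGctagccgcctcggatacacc
Hsp90b1, chr10:86705513-86705571, - strand: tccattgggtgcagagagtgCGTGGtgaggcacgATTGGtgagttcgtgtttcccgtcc
Canx, chr11:50325780-50325838, - strand: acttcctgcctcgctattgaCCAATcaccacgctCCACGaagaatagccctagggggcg
Dnajc3, chr14:118937807-118937865, + strand: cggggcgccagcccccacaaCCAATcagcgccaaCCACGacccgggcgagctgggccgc
The first 6 of these genes rose in untreated TG tissue and the last 3 did not pass. Over the chaperones with a window, the element was in 4 of the 8 that rose and in 3 of the 5 that did not. Those counts rest on TG untreated 1. Without that library, Hsp90b1, Canx and Dnajc3 rose too, so all 7 chaperones with the element rose. Pdia3, whose window lacked it, then rose as well, and Dnajb9, whose window also lacked it, did not pass. Pdia4, P4hb, Sdf2l1 and Dnajb11 rose and had a window without it, and Hyou1 and Manf were not in the table. Hsp90b1 held a second element farther upstream, 212 to 194 bases before its start. The element began between 162 bases (Calr) and 44 bases (Syvn1) before the start in the other 8 genes.

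A shorter form of the element, ATTGGNCCACG, occurred in 0.0365% of all windows and in those of Herpud1 and Dnajb11, in the latter just after the start. The UPR element TGACGTGG occurred in 0.676% of all windows and in no member's window. The ATF4-type element TGATGNAA occurred in 3.97% of all windows and in those of Asns, Chac1, Trib3 and Herpud1, so 3 of the 6 PERK and ATF4 genes held it. The following stretches show the shorter ER stress element of Herpud1 and the ATF4-type elements of Asns and Chac1, again with the fixed bases in capitals.
Herpud1, chr8:94386357-94386407, + strand: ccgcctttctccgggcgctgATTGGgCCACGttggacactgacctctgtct
Asns, chr6:7693210-7693252, - strand: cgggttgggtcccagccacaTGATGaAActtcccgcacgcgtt
Chac1, chr2:119351029-119351076, + strand: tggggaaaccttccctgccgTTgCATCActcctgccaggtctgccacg
Asns and Chac1, which hold the ATF4-type element, were the PERK and ATF4 genes that rose in untreated TG tissue, whereas Trib3 did not pass. A match describes letters in these windows only, and no binding was measured.

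Among ERAD genes, Derl3 read 0.3519, 0.3571 and 0.2461 CPM in untreated WT and 0.8944, 1.063 and 1.551 CPM in untreated TG. All TG libraries lay above WT, at levels near 1 CPM (log2 1.85, SE 0.37, adjusted p = 0.0261). That call was lost in 6 of 17 alternatives, 5 of them fits without an untreated library, TG untreated 3 among these (highest adjusted p = 0.119). Syvn1, the ubiquitin ligase HRD1, read 64.91, 60.23 and 65.39 CPM in WT and 121.7, 84.24 and 117.2 CPM in TG (log2 0.76, SE 0.14, adjusted p = 0.02). Herpud1, an ERAD adaptor, read 174.1, 173.0 and 149.6 CPM in WT and 245.4, 248.5 and 217.9 CPM in TG (log2 0.52, SE 0.10, adjusted p = 0.0228). Both genes were separate between genotypes, although TG untreated 2 was the lowest TG library for Syvn1. The mannosidase-like Edem1 (log2 0.26), the adaptor Sel1l (0.24) and the derlins Derl1 (0.27) and Derl2 (0.35) did not pass (adjusted p = 0.076 to 0.19). In each of them all TG libraries lay above all WT libraries, as they did in 2346 of all 14072 genes tested. No ERAD gene passed when any 1 untreated WT library was left out.

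Within the PERK and ATF4 branch, Chac1 read 1.994, 0.5952 and 0.6152 CPM in untreated WT and 3.995, 4.902 and 4.343 CPM in untreated TG (log2 2.03, SE 0.40, adjusted p = 0.025). Asns, asparagine synthetase, read 27.16, 18.87 and 24.42 CPM in WT and 51.22, 48.02 and 39.58 CPM in TG (log2 0.98, SE 0.18, adjusted p = 0.0209). Neither gene overlapped between genotypes. Atf4 itself read 228.0, 230.6 and 223.2 CPM in WT and 252.7, 257.2 and 243.3 CPM in TG, a log2 difference of 0.14 that did not pass (adjusted p = 0.426). Ddit3, which encodes the stress factor CHOP, read 13.7, 14.0 and 14.29 CPM in WT and 15.23, 15.62 and 19.63 CPM in TG (log2 0.26, SE 0.21, adjusted p = 0.491). For Atf4 and Ddit3 all TG libraries lay above all WT libraries, as in 2346 of all 14072 genes tested, but neither difference passed. Trib3 (log2 1.04, SE 0.58, adjusted p = 0.336) and Ppp1r15a, the phosphatase subunit GADD34 (log2 -0.05, adjusted p = 0.857), overlapped between genotypes. Without WT untreated 2 or 3, or without TG untreated 2, no gene of this branch passed.

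Of the sensors, 1 passed. Eif2ak3, which encodes PERK, read 40.47, 32.44 and 39.0 CPM in untreated WT and 50.32, 56.34 and 49.57 CPM in untreated TG, and it rose (log2 0.48, SE 0.11, adjusted p = 0.0437). That call was lost in 14 of the 19 alternatives, total count scaling and 7 of the fits without a library among them (log2 0.37 to 0.52, highest adjusted p = 0.206). Ern1 read 29.03, 25.29 and 29.65 CPM in WT and 32.97, 20.55 and 31.39 CPM in TG. Atf6 read 66.75, 61.36 and 60.9 CPM in WT and 58.97, 68.69 and 65.26 CPM in TG. Ern2 read 101.7, 72.61 and 92.59 CPM in WT and 119.5, 113.3 and 91.82 CPM in TG (log2 0.28, adjusted p = 0.416). The last 3 genes overlapped between genotypes.

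Bhlha15 showed the largest log2 fold change of the 36 genes. It read 2.639, 1.785 and 1.846 CPM in untreated WT and 12.88, 16.18 and 11.23 CPM in untreated TG, so that the lowest TG library was above every WT library (log2 2.68, SE 0.27, adjusted p = 0.0015, 6.4-fold). Xbp1 read 168.0, 138.8 and 155.5 CPM in WT and 271.5, 265.1 and 235.6 CPM in TG (log2 0.74, SE 0.12, adjusted p = 0.0145). These are gene totals, and spliced Xbp1 was not analysed here. Sec61a1, the channel subunit, read 216.3, 198.2 and 213.9 CPM in WT and 379.1, 317.4 and 300.8 CPM in TG (log2 0.67, SE 0.12, adjusted p = 0.0173). Sec61b read 72.96, 73.74 and 75.24 CPM in WT and 121.6, 121.5 and 110.3 CPM in TG (log2 0.67, SE 0.11, adjusted p = 0.0152). All 4 genes were separate between genotypes.

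**Figure D2:**
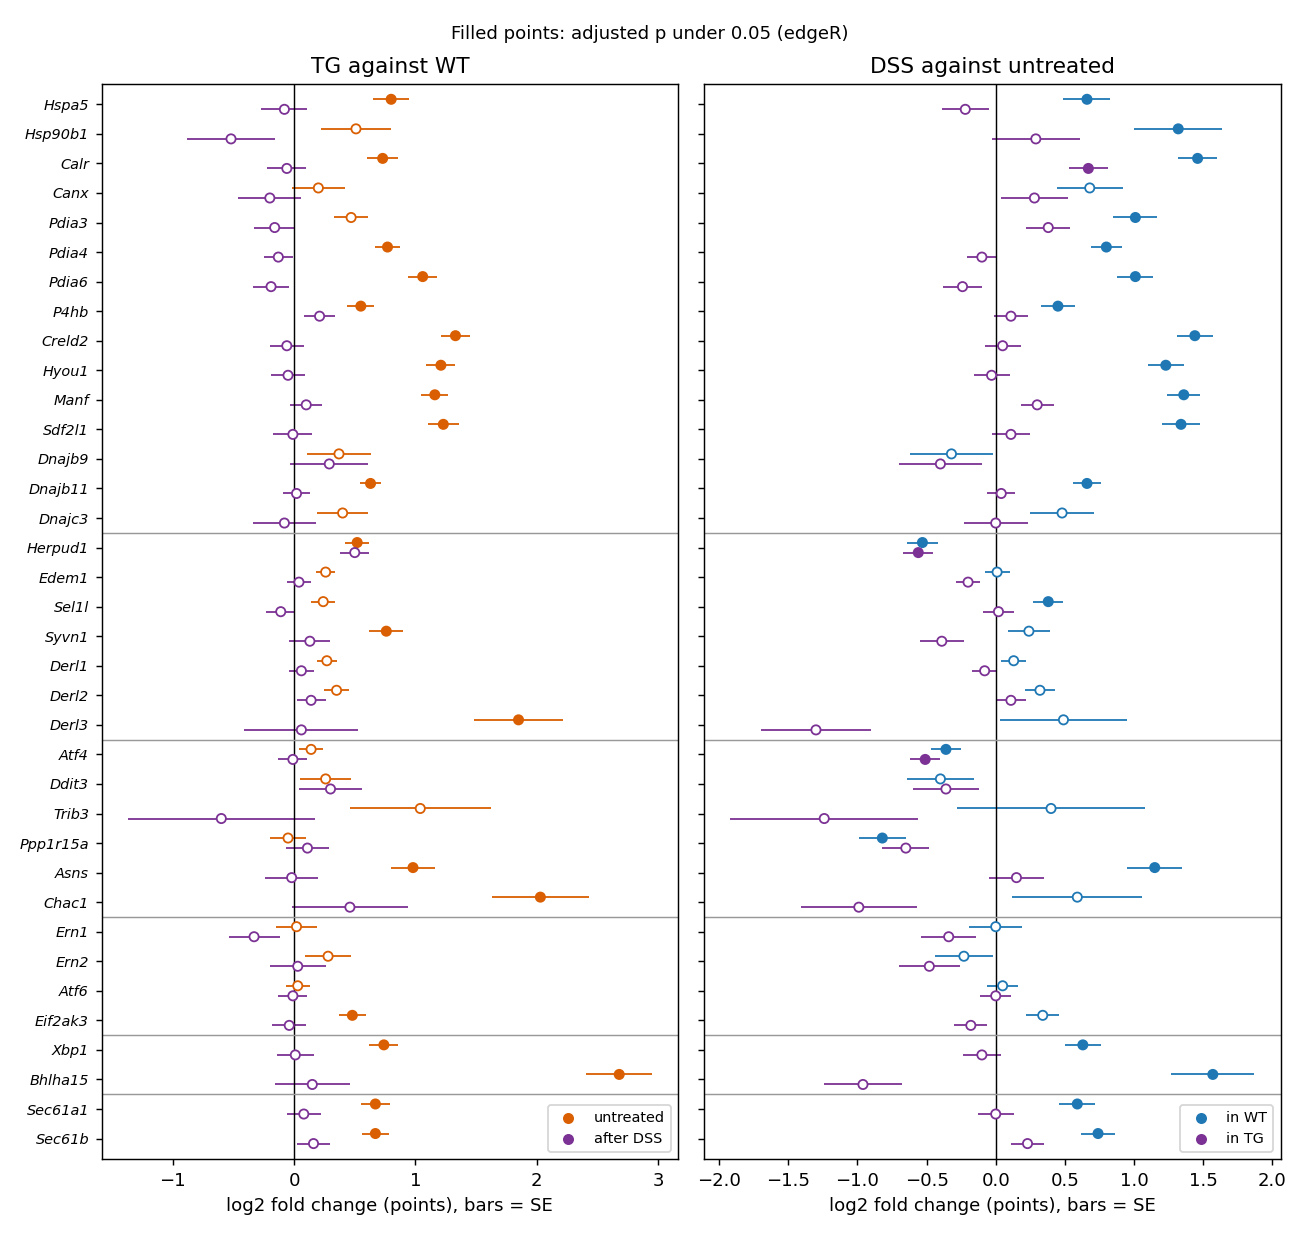
Log2 fold changes (points) with standard errors (bars) of the 36 genes for TG against WT (left) and DSS against untreated (right). Filled points passed at adjusted p under 0.05. In untreated tissue 20 genes are filled and all 20 lie to the right of 0, whereas after DSS none is filled. DSS in WT has 18 filled points to the right and 3 to the left, and DSS in TG has 1 and 2.

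Other genes of the same pathways were followed from lists chosen with earlier results of these data known, so their counts are descriptive. The background was 2.26% of all genes that rose and 1.44% that fell. In untreated TG against WT, 7 of 27 other ER folding and redox genes rose and 0 fell (median log2 0.46), led by Fkbp11, an ER prolyl isomerase (log2 1.87, SE 0.15, adjusted p = 0.000774). Of 30 genes for translocation, signal peptide cleavage and N-glycosylation, 13 rose and 0 fell (median 0.43), among them the oligosaccharyltransferase subunit gene Rpn1 (log2 0.75, adjusted p = 0.0131). Of 29 ER to Golgi transport genes, 8 rose and 0 fell (median 0.36), with Kdelr3, a retrieval receptor, at log2 1.18 (adjusted p = 0.0205). Further ERAD genes and further genes of the integrated stress response had 2 of 24 (median 0.16) and 2 of 32 (median 0.25) that rose and 0 that fell, the smallest shares of the 6 lists. Of 14 cytosolic HSP70 and HSP90 chaperone genes, 5 rose and 0 fell (median 0.60), with Hsph1 at log2 2.17 (SE 0.32, adjusted p = 0.00919), and all 14 log2 fold changes were above 0. Without TG untreated 1 the genes that rose were 8 of the other folding genes, 17 of the translocation and glycosylation genes, 9 of the transport genes, 3 of the further ERAD genes, 4 of the further stress response genes and 6 of the cytosolic chaperones, and 0 fell in each list. Hsph1 was also among the 5 genes whose log2 CPM was nearest to that of Derl3 over the 10 libraries (Pearson r 0.948), with Fhl2 at 0.960, Clic4 at 0.937, Ubqln1 at 0.930 and C4bp at 0.929. The 5 genes nearest to Bhlha15 were Tmem165 (0.961), Fkbp11 and Ube2j1 (both 0.959), Sec24d (0.951) and Xbp1 (0.943). These correlations describe 10 libraries that share 4 group means.

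Goblet cell markers moved with the genotype. The summed level of 9 markers was 9460 to 24200 CPM in untreated WT and 28500 to 39400 CPM in untreated TG, and 4 of the 9 rose (Agr2, Spink4, Spdef and Atoh1; median log2 over the 9 of 1.19). The 5 Paneth cell markers summed to 202 to 527 CPM and 1330 to 1460 CPM, mostly Ang4, and 2 of 5 rose (Ang4 and Itln1). The Paneth markers Lyz1 and Mmp7 were low in all 10 libraries, at 0.811 to 3.1 CPM and 0.893 to 2.99 CPM. Ang4 and Itln1 are therefore not read here as a measure of Paneth cells, and the list name serves only as a label. Of 5 fibroblast markers, the collagen genes Col1a1 and Col3a1 rose, from a summed marker level of 16.2 to 27.7 CPM in WT to 28.4 to 91.4 CPM in TG. None of the 7 tested plasma cell markers passed, 0 of them at unadjusted p under 0.05, and their sum of 308 to 330 CPM in WT and 330 to 379 CPM in TG was mostly Sdc1, which epithelium also expresses. Of 7 pancreatic acinar markers, Prss2, Cpa1, Cpb1, Cel and Pnlip read 0 to 0.119 CPM and Ctrb1 0 to 0.179 CPM, whereas Cela1 read 58.9 to 216 CPM over the 10 libraries and was lower with DSS in WT (log2 -1.01). TG untreated 3 stood apart for B-lineage genes: 5 B cell markers summed to 34.7 CPM there and to 0.715 to 3.51 CPM in the other untreated libraries, and Irf4 (8.25 CPM), Pou2af1 (5.09 CPM) and Derl3 were highest there. Without TG untreated 1, 4 goblet markers, 2 Paneth markers and 4 of 5 fibroblast markers rose. The fibroblast sum was 28.4 CPM in that library and 91.4 and 89.4 CPM in the others of its group. The part of goblet, fibroblast and B-lineage content, and of cells that express Ang4 and Itln1, in the higher folding genes was not tested.

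**Figure D3:**
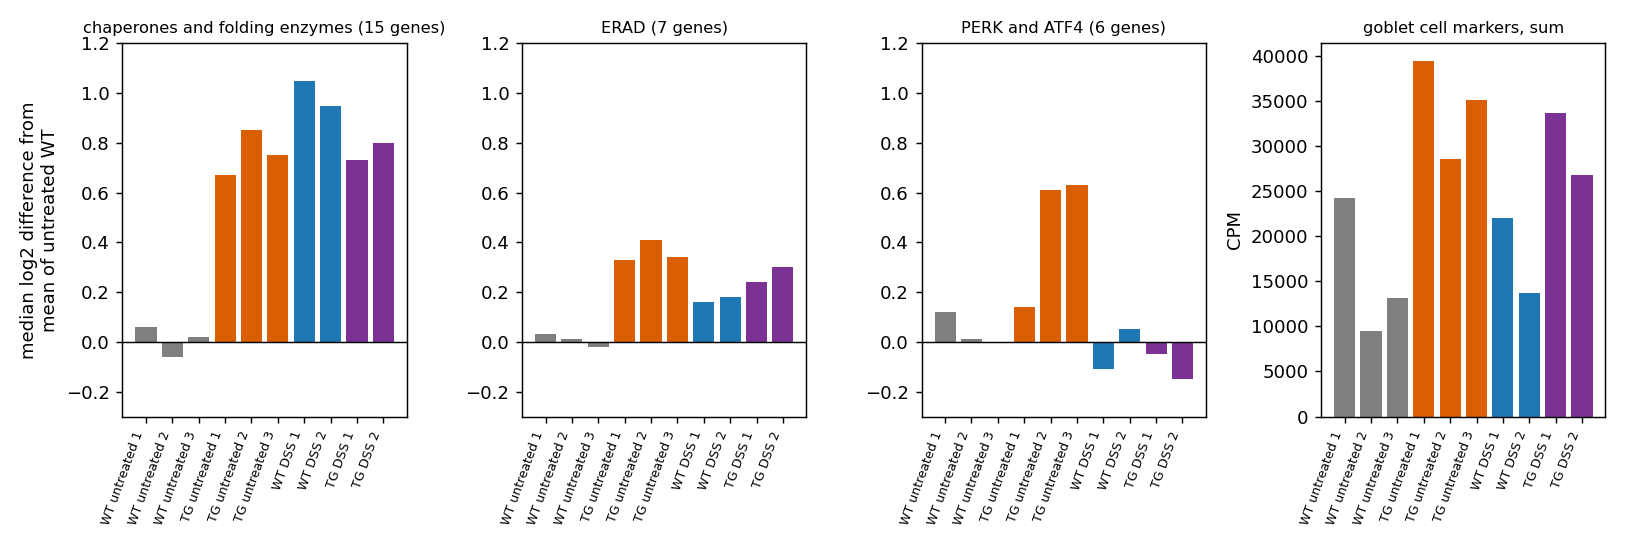
Bars give, for each library, the median log2 difference from the untreated WT mean of the chaperone, ERAD and PERK and ATF4 genes (first 3 panels) and the summed CPM of 9 goblet cell markers (last panel). Chaperone medians are 0.67 to 1.05 in all libraries other than untreated WT, PERK and ATF4 medians above 0.5 occur only in TG untreated 2 and 3, and goblet marker sums are highest in the TG libraries.

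In tissue of mice given DSS, no member passed between the genotypes. With 2 libraries a group, 0 of the 36 members passed in edgeR, 1 had an unadjusted p under 0.05, and DESeq2 called 1, against 0.178% of all genes that rose and 0.00711% that fell (25 and 1 genes, or 6 and 1 under total count scaling). The median log2 difference of the 36 was 0.00, with 18 above 0, against -0.01 over all genes. Median differences were -0.06 for chaperones, 0.06 for ERAD genes and 0.05 for PERK and ATF4 genes. Under total count scaling, which moved the median of all genes to -0.09, the chaperone median became -0.14. The ERAD and the PERK and ATF4 medians both became -0.02. The gene called by DESeq2 was Herpud1, which read 117.0 and 111.5 CPM in WT after DSS and 157.1 and 165.4 CPM in TG after DSS (log2 0.50, SE 0.12, edgeR adjusted p = 0.181). Its TG libraries lay above its WT libraries with DSS as without. Goblet markers summed to 13700 to 22000 CPM in WT and 26800 to 33600 CPM in TG after DSS, with Atoh1 passing. In 8 of 9 markers both TG libraries lay above both WT libraries. With 2 libraries a group this held for 3098 of all 14072 genes tested, and the reverse for 2985.

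DSS in WT tissue was accompanied by higher chaperone levels and by lower Atf4, Ppp1r15a and Herpud1. Of the 36 members, 18 rose and 3 fell, against 10.2% of all genes that rose and 9.62% that fell, and the median log2 fold change was 0.54. Total count scaling changed the calls over all genes from 1434 up and 1354 down to 1146 and 1700, and left those of the members at 18 and 3. This comparison uses the same untreated WT libraries as the genotype comparison, so the values are given side by side without a measure of their likeness. Of the 15 chaperones 12 rose and 0 fell (median 1.01), whereas 1 ERAD gene rose and 1 fell (median 0.24), 1 PERK and ATF4 gene rose and 2 fell (median 0.02), and no sensor passed. Both transcription factors and both translocon subunits rose. Without WT DSS 2, 13 members rose and 0 fell, and without TG untreated 1, which enters the shared spread, 22 rose and 3 fell.

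Calr had the largest log2 fold change of the chaperones, from 520.9, 446.1 and 468.6 CPM in untreated WT to 1347.0 and 1288.0 CPM after DSS (log2 1.46, SE 0.14, adjusted p = 0.000192). Creld2 reached 55.89 and 64.11 CPM (log2 1.44, SE 0.13, adjusted p = 0.000166), Manf 148.5 and 158.1 CPM (log2 1.36, SE 0.12, adjusted p = 0.000128) and Sdf2l1 60.15 and 63.68 CPM (log2 1.34, SE 0.14, adjusted p = 0.00032). These 4 genes lay above all untreated WT libraries in both DSS libraries. So did 3990 of all 14072 genes tested, and 4087 lay below. Hsp90b1 read 806.9 and 876.3 CPM, above every other library in the study (log2 1.32, SE 0.32, adjusted p = 0.0192). The remaining chaperones that rose were Hyou1 (log2 1.23), Pdia3 (1.01), Pdia6 (1.01), Pdia4 (0.80), Hspa5 (0.66), Dnajb11 (0.66) and P4hb (0.45). Canx (0.68, adjusted p = 0.0724), Dnajc3 (0.48, adjusted p = 0.177) and Dnajb9 (-0.32, adjusted p = 0.492) did not pass.

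Herpud1 fell from 149.6 to 174.1 CPM in untreated WT to 117.0 and 111.5 CPM after DSS (log2 -0.53, SE 0.11, adjusted p = 0.0109), while Sel1l, which acts in the same degradation complex, rose (log2 0.38, SE 0.11, adjusted p = 0.0321). Derl3 read 0.3545 and 0.5401 CPM, overlapping the untreated libraries. Atf4 fell to 194.7 and 158.8 CPM (log2 -0.36, SE 0.11, adjusted p = 0.0454) and Ppp1r15a fell from 104.3 to 122.0 CPM to 74.15 and 56.33 CPM (log2 -0.82, SE 0.17, adjusted p = 0.00978). Asns, by contrast, rose to 45.26 and 59.03 CPM (log2 1.15, SE 0.20, adjusted p = 0.00452). Genes assigned to the PERK and ATF4 branch thus passed in both directions in WT tissue. Ddit3 (log2 -0.40, adjusted p = 0.278), Chac1 (0.59, adjusted p = 0.42) and Trib3 (0.40, adjusted p = 0.726) did not pass.

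Bhlha15 rose to 6.854 and 5.617 CPM in WT after DSS (log2 1.57, SE 0.30, adjusted p = 0.00684), a level between untreated WT and untreated TG. Xbp1 rose to 261.9 and 214.5 CPM (log2 0.63, SE 0.13, adjusted p = 0.0116). The sensor values were 30.66 and 25.38 CPM for Ern1, 94.3 and 57.63 CPM for Ern2, and 66.82 and 63.41 CPM for Atf6. Each of these sensors overlapped its untreated range. Eif2ak3 read 48.92 and 45.69 CPM, above all 3 untreated libraries (log2 0.34, adjusted p = 0.0785).

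Neutrophil markers moved with DSS, as 5 of 5 rose in WT and 4 of 5 in TG, from a sum of 5.38 to 6.22 CPM in untreated libraries to 17.7 to 34.8 CPM. Ptprc ranged from 10.9 to 22.4 CPM with DSS and from 8.94 to 114 CPM without. The goblet marker sum in WT after DSS lay within the untreated WT range, with Tff3 higher and Atoh1 lower. Markers of other cells fell in WT too. Of 6 colonocyte genes, Aqp8 (log2 -1.55), Slc26a3 (-1.53), Car1 (-1.07) and Car4 (-0.70) fell and Ceacam20 rose (0.67). Of 5 Paneth genes, Ang4 (-4.27) and Itln1 (-3.22) fell, with a median of -0.10 over the 5. Of 7 plasma cell genes, Jchain (-3.03) and Slamf7 (-1.85) fell. Among the further lists, 12 of 30 translocation and glycosylation genes and 7 of 29 transport genes rose and 0 fell in WT, and 8 of 32 other stress response genes rose and 2 fell, with the tryptophanyl-tRNA synthetase gene Wars at log2 1.37 (adjusted p = 0.000252). Other folding genes had 2 of 27 that rose and 0 that fell (7 and 1 without TG untreated 1). Other ERAD genes had 3 of 24 that rose and 1 that fell (4 and 1 without it). With all libraries, the shares that rose were near the 10.2% of all genes, of which 9.62% fell. The cytosolic chaperones split, with 4 of 14 that rose and 2 that fell, the latter being the inducible HSP70 genes Hspa1a (log2 -4.11, SE 0.70, adjusted p = 0.00428) and Hspa1b (log2 -3.69, SE 0.62, adjusted p = 0.00412), a near-identical pair between which reads can be split uncertainly. In the fit without TG untreated 1, 21 translocation and glycosylation, 11 transport, 12 stress response and 5 cytosolic chaperone genes rose in WT. In the same order, 0, 1, 3 and 2 fell. The part of leukocyte, colonocyte and plasma cell content, and of cells that express Ang4 and Itln1, in the values with DSS in WT was not tested. DSS and sex cannot be told apart in them.

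With DSS in TG tissue, Calr rose and Herpud1 and Atf4 fell. These were 1 of the 36 members up and 2 down, against 3.33% of all genes that rose and 2.15% that fell (468 and 303 genes, or 413 and 402 under total count scaling), shares near that background, and the median log2 fold change was -0.09 against 0.01 over all genes. Calr rose from 863.0, 761.1 and 762.0 CPM in untreated TG to 1081.0 and 1445.0 CPM (log2 0.67, SE 0.14, adjusted p = 0.0223). Herpud1 fell from 217.9 to 248.5 CPM to 157.1 and 165.4 CPM (log2 -0.56, SE 0.11, adjusted p = 0.0192), and Atf4 fell from 243.3 to 257.2 CPM to 183.5 and 168.3 CPM (log2 -0.51, SE 0.11, adjusted p = 0.0264). All 3 genes were separate between treatments, and each also passed in the same direction in WT tissue. In TG tissue, both DSS libraries lay above every untreated library in 2693 of all 14072 genes tested, and below in 2249. Ppp1r15a read 74.71 and 66.22 CPM, below all untreated TG libraries (log2 -0.65, SE 0.17, adjusted p = 0.0519).

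The chaperone median for DSS in TG was 0.05, or -0.01 under total count scaling, against -0.20 for ERAD genes and -0.58 for PERK and ATF4 genes. Bhlha15 read 4.922 and 8.9 CPM after DSS, below all untreated TG libraries (log2 -0.96, SE 0.28, adjusted p = 0.0836). Derl3 read 0.4688 and 0.4684 CPM, also below all of them (log2 -1.30, SE 0.40, adjusted p = 0.093). Of all 14072 genes tested, 2249 lay below in this way. Chac1 read 2.109 and 2.342 CPM against 3.995 to 4.902 CPM untreated (log2 -0.99, SE 0.42, adjusted p = 0.228). Without TG untreated 1, 1 member rose and 4 fell, among them Derl3 (log2 -1.46, adjusted p = 0.048) and Ppp1r15a (log2 -0.56, adjusted p = 0.0489). Without TG DSS 2, 0 members passed, and without TG untreated 3 or TG DSS 1, 1 did. Fitting only the untreated and DSS TG libraries also left 0 members past the threshold. Among the further lists, Hspa1a (log2 -2.65) and Hspa1b (-2.59) fell in TG too, and no other gene of the cytosolic list passed; without TG untreated 1, 5 of its 14 genes fell. Cell type markers moved in TG with DSS as well. The Paneth genes Ang4 (log2 -5.50) and Itln1 (-5.17) fell, though 3 of 5 Paneth log2 fold changes were above 0 (median 0.39). The fibroblast genes Col1a1 (-2.99) and Col3a1 (-2.19) fell, with 0 of 5 above 0. The goblet genes Zg16 (1.98) and Tff3 (1.96) rose, but only 3 of 9 goblet values were above 0 (median -0.19). The colonocyte genes Car4 (0.98) and Ceacam20 (0.95) rose, with 3 of 6 above 0 (median 0.07). The enteroendocrine gene Chga (0.93) rose too. The part of the cells that express these genes in the values of the members was not tested.

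The interaction term tested whether the genotype difference after DSS departed from that in untreated tissue. Sex changed together with DSS, so this term cannot tell DSS from sex. It passed, downward, for 7 of the 36 members and upward for 0, against 0.32% of all genes downward and 0.526% upward. The 7 were the chaperones and folding enzymes Pdia4, Pdia6, Creld2, Hyou1, Manf and Sdf2l1 and the factor Bhlha15. Over the 36 the median interaction was -0.60, with 2 above 0, against 0.00 over all genes. No ERAD gene, PERK and ATF4 gene or sensor passed, with medians of -0.22, -0.58 and -0.30.

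Creld2 read 55.89 and 64.11 CPM in WT after DSS and 51.86 and 63.24 CPM in TG after DSS, so the genotypes overlapped where they had been separate without DSS (interaction log2 -1.39, SE 0.19, adjusted p = 0.0116). Hyou1 read 189.8 and 209.4 CPM in WT and 172.6 and 212.3 CPM in TG after DSS (interaction log2 -1.26, SE 0.19, adjusted p = 0.0205). Sdf2l1 read 51.04 and 72.28 CPM in TG after DSS, around the 60.15 and 63.68 CPM of WT (interaction log2 -1.23, SE 0.20, adjusted p = 0.0269). In all 7 genes with a passing interaction, every library with DSS, the transgene or both lay above every untreated WT library. The interaction was estimated from these same libraries, so this order is not a separate result. Its share over all genes was not counted. The same held for some other members, such as Calr and Sec61b. Manf read 157.6 and 170.8 CPM in TG after DSS against 148.5 and 158.1 CPM in WT (interaction log2 -1.06, SE 0.17, adjusted p = 0.0247). Pdia6 read 213.4 and 245.0 CPM in TG after DSS against 267.0 and 254.2 CPM in WT (interaction log2 -1.25, SE 0.19, adjusted p = 0.0205). Pdia4 read 135.8 and 163.7 CPM against 155.0 and 171.6 CPM (interaction log2 -0.90, SE 0.16, adjusted p = 0.0354). Of the 7, Pdia6 was the gene with both TG libraries below both WT libraries after DSS.

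Bhlha15 had the largest interaction of the 36 (log2 -2.53, SE 0.41, adjusted p = 0.0253), with 4.922 and 8.9 CPM in TG after DSS around the 6.854 and 5.617 CPM of WT after DSS. Fkbp11, in the list of other folding genes, was the single gene of the 6 further lists that passed (interaction log2 -1.35, SE 0.24, adjusted p = 0.0345), and without TG untreated 1 the lists had 7 translocation and glycosylation, 4 cytosolic chaperone, 2 other folding, 1 stress response and 1 transport gene past the threshold. Herpud1 had an interaction of -0.02 (SE 0.16, adjusted p = 0.973), with a genotype difference of 0.52 without and 0.50 with DSS. Herpud1 thus stood highest in untreated TG and lowest in WT after DSS, an order that none of the 7 interaction genes showed. Without TG untreated 1 the interaction passed for 13 members, 12 of them chaperones, among them Hsp90b1 (log2 -1.37, adjusted p = 0.00209) and Hspa5 (log2 -1.05, adjusted p = 0.0127). Leaving out WT untreated 1, 2 or 3 left 1, 3 or 2 members past the threshold. Whether the 7 genes passed thus depended on single libraries. None of their 7 estimates changed sign in any of the 19 alternatives.

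**Figure D4:**
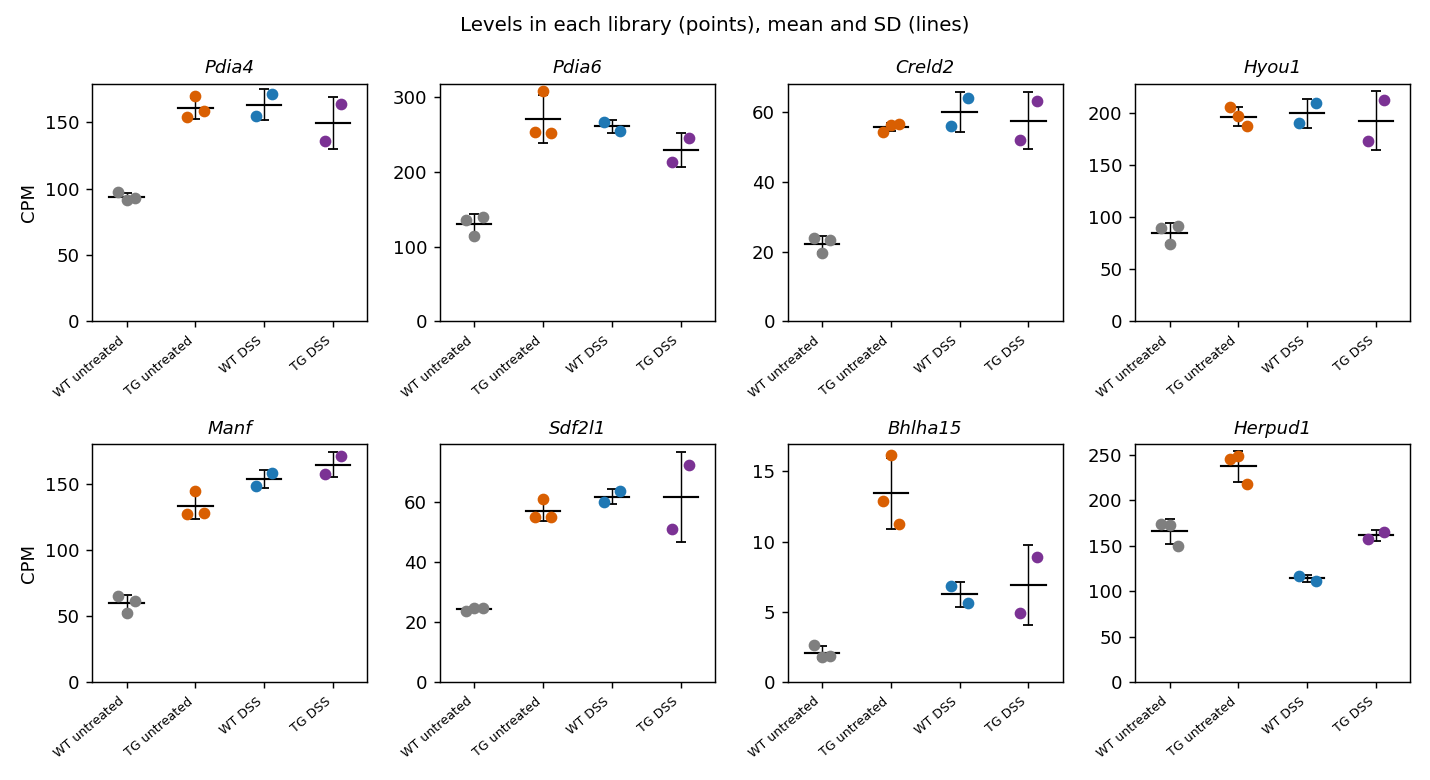
CPM of the 7 genes with a passing interaction and of Herpud1 in each library (points), with group means (horizontal lines) and SD (bars), on axes that start at 0. Untreated WT is lowest for the 7 interaction genes and the other groups lie together for the 6 chaperones, Bhlha15 is highest in untreated TG, and Herpud1 is lowest in WT after DSS.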

How the data were processed

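The authors deposited 1 table per library with expected counts, FPKM and gene length, per the file headers. HISAT2 2.0.4, Bowtie2 2.2.5, RSEM 1.2.12 and mm10 are named, without roles, in the submitters' processing notes. Reads shared by similar genes are split by estimation, so 24.8 to 26.7% of the deposited expected counts were not whole. Deposited FPKM is scaled to length and library and was used for levels between genes. Genes not listed in a library were set to 0, and expected counts were rounded. After filterByExpr (count minimum 10, total 15), 14072 genes, among them all 36 members, were scaled by TMM and fitted in edgeR 4.0.16 (R 4.3.3) with 1 mean per group over all 10 libraries (biological coefficient of variation 0.171, with 6 residual degrees of freedom), tested by quasi-likelihood. The threshold was a Benjamini-Hochberg adjusted p of 0.05 over all genes. CPM use TMM-scaled library sizes.

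Per-library values are given for the 3 largest passing members per role (filled by level), every member with a passing interaction, the sensors and the factors Xbp1, Bhlha15, Atf4 and Ddit3. Calr, Hsp90b1, Canx, Dnajb9 and Dnajc3 were added after their values were seen. Members and lists were chosen with earlier results of these data known. No pair of same-group libraries agreed within counting noise (mean chi-square per gene 9.61 to 61.6 over 8 pairs). Alternatives were DESeq2 1.42.0, other scalings, no filter, only the groups compared, a replicate block, limma 3.58.1 on log2 FPKM and leaving out each library. The fits were tested on simulated counts.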

Additional observations from a re-analysis of the deposited data

Results flagged for a closer look

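For 7 of the 36 genes, the genotype difference after DSS departed from that in untreated tissue by the interaction test in edgeR (the former minus the latter). The log2 values were -2.53 for Bhlha15, -1.39 for Creld2, -1.26 for Hyou1, -1.25 for Pdia6, -1.23 for Sdf2l1, -1.06 for Manf and -0.90 for Pdia4. Untreated WT was the lowest group for each of these genes. Without TG DSS 1 none of the 7 passed, and without TG untreated 1 all 7 did. Sex differs between all DSS and all untreated libraries, so DSS and sex cannot be told apart in these interactions. No group had the 4 libraries that a test for a single outlying value needs.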

How the results depend on the processing

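No value that passed changed sign in any of the 19 alternatives. Of the calls, 6 of 20 for TG against WT untreated, 12 of 21 for DSS in WT, 0 of 3 for DSS in TG and 0 of 7 for the interaction passed in every alternative. DESeq2 called 1 member for TG against WT after DSS, 5 for DSS in TG, 12 for the interaction and 6 ERAD genes for TG against WT untreated. Fitting only the groups compared gave 0 members for DSS in TG and 1 PERK and ATF4 gene for TG against WT untreated, and log2 FPKM without a filter also gave 1 such gene. Deviations from the group means correlated at -0.23 to 0.16 over 13 pairs of same-numbered libraries and at -0.16 to 0.23 over 24 other pairs. In groups of 2 or 3 libraries these deviations depend on one another, so the values cannot show whether the numbers pair the libraries. With the replicate block, 10 members passed for TG against WT untreated, 1 for DSS in TG and 0 for the interaction, with 0 ERAD and 0 PERK and ATF4 genes. Leaving out each library in turn gave 6 to 25 members for TG against WT untreated, 13 to 25 for DSS in WT, 0 to 5 for DSS in TG and 0 to 13 for the interaction, and 5 to 14 chaperones, 0 to 4 ERAD genes and 0 to 2 PERK and ATF4 genes for TG against WT untreated. For TG against WT untreated, leaving out untreated WT libraries 1 to 3 in order gave 10, 7 and 6 members, and leaving out the untreated TG libraries gave 25, 11 and 15. For the interaction these omissions gave 1, 3 and 2 (WT) and 13, 3 and 3 (TG), those of the WT DSS libraries 7 and 4, and those of the TG DSS libraries 0 and 4. Trib3, Derl3 and Chac1 lay near 1 CPM or below in some groups, where counting error limits the folds.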
